A study of Mus musculus with 16 samples.

Results

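Broad domains of H3K27me3 with no EZH2 peak were examined in the chromatin of primary mouse macrophages. They were all H3K27me3 peaks on chromosomes 1 to 19 and X that were at least 5000 bases wide and shared no base with a peak of either EZH2 list, from untreated cells or from cells given nigericin. There were 2395 such domains, named EZH2-free below, among 3880 broad domains (61.7%, Wilson 95% interval 60.2 to 63.2) and among 88037 H3K27me3 peaks in all. They made up 2.72% of the H3K27me3 peaks and 16.2% of the bases in them, 20.1 Mb in all. The other 1485 broad domains overlapped at least 1 EZH2 peak and are named EZH2-holding. The domains were chosen by the measured width of the H3K27me3 peaks and by the EZH2 peak calls, so width, H3K27me3 fold and the lack of EZH2 are descriptions only.

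H3K27me3 is trimethylation of lysine 27 of histone H3, the mark that Polycomb repressive complex 2 writes through its catalytic subunit EZH2 (or the related EZH1) and that goes with repressed genes. Polycomb complexes are recruited to islands of CG dinucleotides, and the mark spreads from there over neighbouring chromatin. The inactive X chromosome of female cells gains H3K27me3 over much of its length under the long non-coding RNA Xist, which is transcribed from that chromosome.

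The data came from chromatin immunoprecipitation and sequencing of macrophages grown for 5 days, in medium conditioned with M-CSF, from the bone marrow of femurs and tibias of adult C57BL/6 mice. Of 16 samples, 7 were inputs and 9 were immunoprecipitations with a peak list each. EZH2 was mapped in wild-type cells primed with LPS and then given nigericin, an ionophore and trigger of the NLRP3 inflammasome, and in untreated wild-type cells; no library with LPS alone was among the samples. Untreated wild-type cells also gave the lists of H3K27me3, H3K27ac (a mark of active enhancers and promoters) and p53. SIRT1, an NAD-dependent deacetylase, was mapped without treatment in Ezh2 knockout against Ezh2 wild-type and in p53 knockout against p53 wild-type cells. The labels give neither the sex of the animals nor how or in which cells the genes were deleted. Each group held 1 library (n = 1), so no difference between conditions has a replicate check, no p-value is given, and every interval covers counting error only. Of the macrophage markers examined, all 8 (Csf1r, Adgre1, Cd68, Itgam, Spi1, Lyz2, Mertk and Fcgr1) had an H3K27ac peak and 0 had an H3K27me3 peak, and none lay in a broad domain. Of the markers of other cell types, H3K27ac peaks lay at 2 of 3 B cell genes (Ms4a1, 6.06-fold, and Cd79a, 2.90-fold) and at both endothelial genes (Pecam1, 4.22-fold, and Cdh5, 3.99-fold), and at 0 of the 3 T cell, 3 neutrophil, 3 erythroid and 3 stromal genes. H3K27me3 peaks lay at 2 T cell, 1 B cell, 1 neutrophil, 1 erythroid and 2 stromal genes, and at Cdh5 (3.32-fold). EZH2-free domains overlapped 1 of 3 T cell genes (Cd3e) and 1 of 3 stromal genes (Col1a1), beside 4.39% of all coding genes. An EZH2-holding domain overlapped 1 stromal gene (Pdgfra), beside 6.32% of all coding genes.

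Promoter sequences are shown first because gene starts in EZH2-free domains spanned the range from few to many CG dinucleotides. Each is the 300-base RefSeq sequence of GRCm38.p6 from 250 bases before to 50 after the annotated start, printed 5′ to 3′ on the gene's strand, with each CG in capitals. Mucl3, a mucin-like gene (chr17:35643646-35643945, minus strand, 5 CG), had the highest H3K27me3 fold among EZH2-free domains with a protein-coding promoter entry (12.6), and Gimap1, a lymphocyte GTPase gene (chr6:48738797-48739096, plus strand, 4 CG), lay in a domain of 11.1-fold. Hmcn2, an extracellular matrix gene (chr2:31314082-31314381, plus strand, 26 CG; 11.9-fold), stands for the CG-rich end on autosomes. On X, the homeobox gene Cdx4 (chrX:103321148-103321447, plus strand, 8 CG; 8.89-fold) and the synaptic exchange-factor gene Iqsec2 (chrX:152144018-152144317, plus strand, 41 CG; 9.88-fold) are given. Bcar1, an adaptor gene of focal adhesions (chr8:111732087-111732386, minus strand, 30 CG), lay in an EZH2-holding domain of 16.3-fold and is shown for comparison. Its count is above the median of 20 for EZH2-holding domains, and the promoter of Ctrb1 in the same domain has 1 CG.
Mucl3: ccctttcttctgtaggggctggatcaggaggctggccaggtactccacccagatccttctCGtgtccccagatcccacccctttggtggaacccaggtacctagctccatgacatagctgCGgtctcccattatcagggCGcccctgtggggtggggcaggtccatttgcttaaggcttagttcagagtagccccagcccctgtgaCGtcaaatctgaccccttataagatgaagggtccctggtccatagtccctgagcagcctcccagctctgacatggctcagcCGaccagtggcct
Gimap1: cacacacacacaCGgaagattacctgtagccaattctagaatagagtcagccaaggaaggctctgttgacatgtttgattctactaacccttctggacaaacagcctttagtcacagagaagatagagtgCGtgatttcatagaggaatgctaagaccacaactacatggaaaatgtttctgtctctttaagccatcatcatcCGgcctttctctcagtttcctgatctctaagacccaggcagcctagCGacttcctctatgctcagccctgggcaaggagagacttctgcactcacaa
Hmcn2: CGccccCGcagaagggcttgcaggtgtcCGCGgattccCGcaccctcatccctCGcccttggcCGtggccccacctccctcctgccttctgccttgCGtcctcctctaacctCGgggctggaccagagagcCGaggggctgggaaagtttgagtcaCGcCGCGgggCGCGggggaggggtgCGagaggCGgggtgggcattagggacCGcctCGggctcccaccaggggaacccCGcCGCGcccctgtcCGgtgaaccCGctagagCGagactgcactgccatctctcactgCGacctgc
Cdx4: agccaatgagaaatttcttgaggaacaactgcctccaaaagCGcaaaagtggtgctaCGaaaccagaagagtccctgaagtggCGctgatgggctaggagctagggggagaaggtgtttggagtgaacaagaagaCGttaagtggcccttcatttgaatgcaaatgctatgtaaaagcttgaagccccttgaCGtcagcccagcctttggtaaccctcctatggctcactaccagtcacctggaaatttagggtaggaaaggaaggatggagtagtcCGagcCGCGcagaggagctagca
Iqsec2: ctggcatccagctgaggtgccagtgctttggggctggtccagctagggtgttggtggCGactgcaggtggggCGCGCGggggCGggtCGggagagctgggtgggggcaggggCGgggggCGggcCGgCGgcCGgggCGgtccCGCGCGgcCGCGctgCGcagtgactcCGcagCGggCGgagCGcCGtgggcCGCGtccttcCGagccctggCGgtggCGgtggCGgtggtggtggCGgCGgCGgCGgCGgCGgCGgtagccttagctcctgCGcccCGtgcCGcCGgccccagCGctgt
Bcar1: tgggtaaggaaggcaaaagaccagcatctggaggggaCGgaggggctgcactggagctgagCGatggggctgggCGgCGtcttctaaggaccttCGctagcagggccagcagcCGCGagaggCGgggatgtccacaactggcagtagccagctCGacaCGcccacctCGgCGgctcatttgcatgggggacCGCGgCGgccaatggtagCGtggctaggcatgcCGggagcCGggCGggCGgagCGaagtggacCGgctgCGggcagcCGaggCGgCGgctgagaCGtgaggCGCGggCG
The letters CG read the same on both strands, so the counts hold for both.

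The X chromosome held 601 of the 2395 EZH2-free domains (25.1%, 23.4 to 26.9), against 15 of the 1485 EZH2-holding domains (1.01%, 0.613 to 1.66). Of the broad domains on X, 97.6% (601 of 616, 96.0 to 98.5) were EZH2-free, against 55.0% on the autosomes (1794 of 3264, 53.3 to 56.7). Per Mb, X had 3.52 EZH2-free domains and the autosomes had 0.729. X also held 26.7% of all H3K27me3 peaks, which is close to its share of the EZH2-free domains, and its density of H3K27me3 peaks was 5.24 times that of the autosomes. Every other list was sparser on X than on the autosomes. The EZH2 peaks per Mb on X were 0.103 times those on the autosomes after nigericin and 0.189 times in untreated cells, and the ratio was 0.211 for H3K27ac, 0.283 for p53 and 0.0919 to 0.104 for the SIRT1 lists. The part of this general scarcity of called peaks on X in the lack of EZH2 there was not tested.

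Among the autosomes, the EZH2-free share of broad domains ran from 33.7% on chromosome 3 (25.1 to 43.5) to 66.5% on chromosome 6 (60.1 to 72.4). Chromosome 11, which is rich in genes, had the most EZH2-free domains of any autosome, 260, or 2.13 per Mb, with an EZH2-free share of 65.5% (60.7 to 70.0). Chromosome 3 had the fewest per Mb, 0.206. No autosome had an interval that reached that of X.

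**Figure D1:**
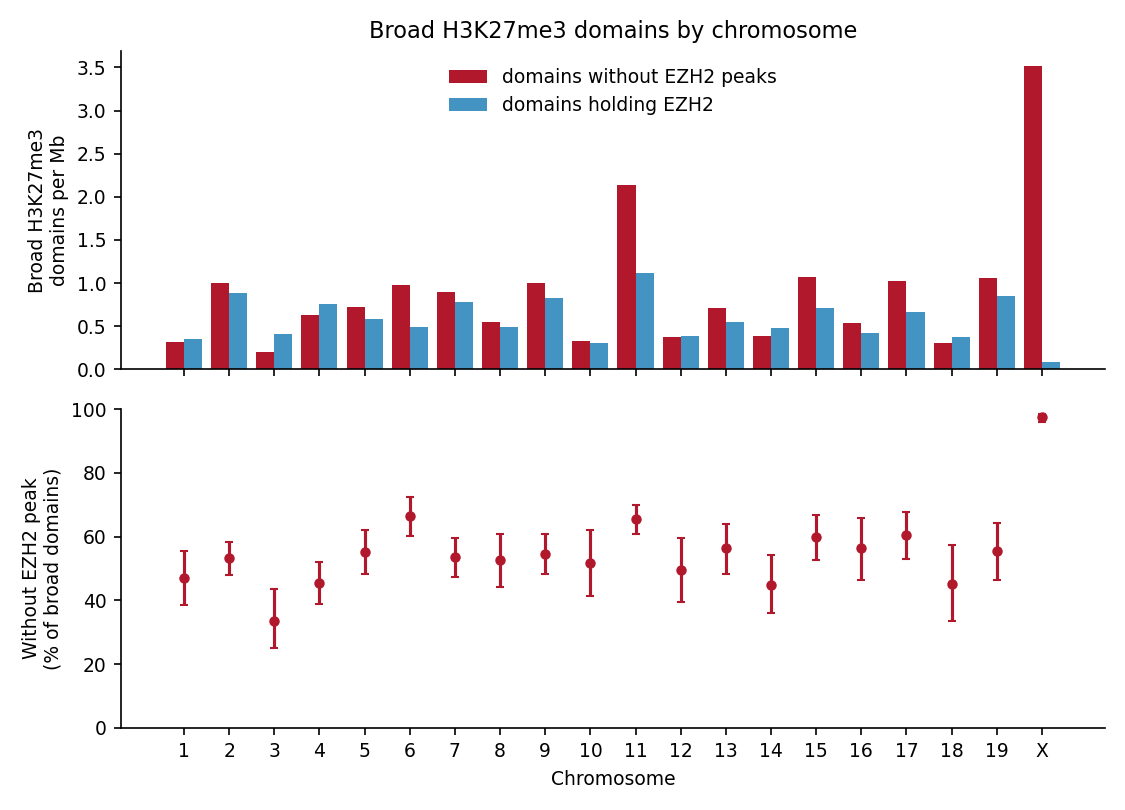
Broad H3K27me3 domains per Mb on each chromosome (upper panel; EZH2-free in red, EZH2-holding in blue) and the percentage of broad domains that are EZH2-free (lower panel; bars are Wilson 95% intervals). X stands apart with 3.52 EZH2-free domains per Mb and 97.6% EZH2-free, and chromosome 11 is the densest autosome with 2.13 per Mb.

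On X the largest group of EZH2-free domains lay around Xist. Of the 601, 322 (53.6%) lay within 10 Mb of the Xist start, a stretch that is 11.7% of the chromosome and holds 14.0% of its protein-coding genes and 19.98% of its H3K27me3 peaks. Within 1 Mb lay 80 (13.3%), in 1.17% of the length. The 5 Mb below the start (towards lower coordinates) held 165 domains covering 1378 kb, the next 5 Mb on that side held 82 covering 685 kb, and the first 5 Mb above the start held 75 covering 658 kb. The windows from 5 to 30 Mb above the start held 0. Further up lay 33 at 30 to 35 Mb, 78 (573 kb) at 35 to 40 Mb and 44 at 45 to 50 Mb. Another 40 lay at 55 to 60 Mb, 19 at 60 to 65 Mb and 16 at 65 to 70 Mb. H3K27me3 peaks of all widths were also few from 5 to 30 Mb above the start, with 38, 7, 0, 0 and 13 in its windows of 5 Mb. Their highest count was not at Xist: it was 1543 in the 5 Mb below Xist and 1799 in the 5 Mb from 55 Mb above it, where 40 EZH2-free domains lay. As 601 of the 616 broad domains on X were EZH2-free, this profile is nearly that of all broad domains on X and is not particular to those without EZH2. EZH2 peaks of both lists together were few in every window, with 7 in the 5 Mb below Xist and at most 16 in any window.

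**Figure D2:**
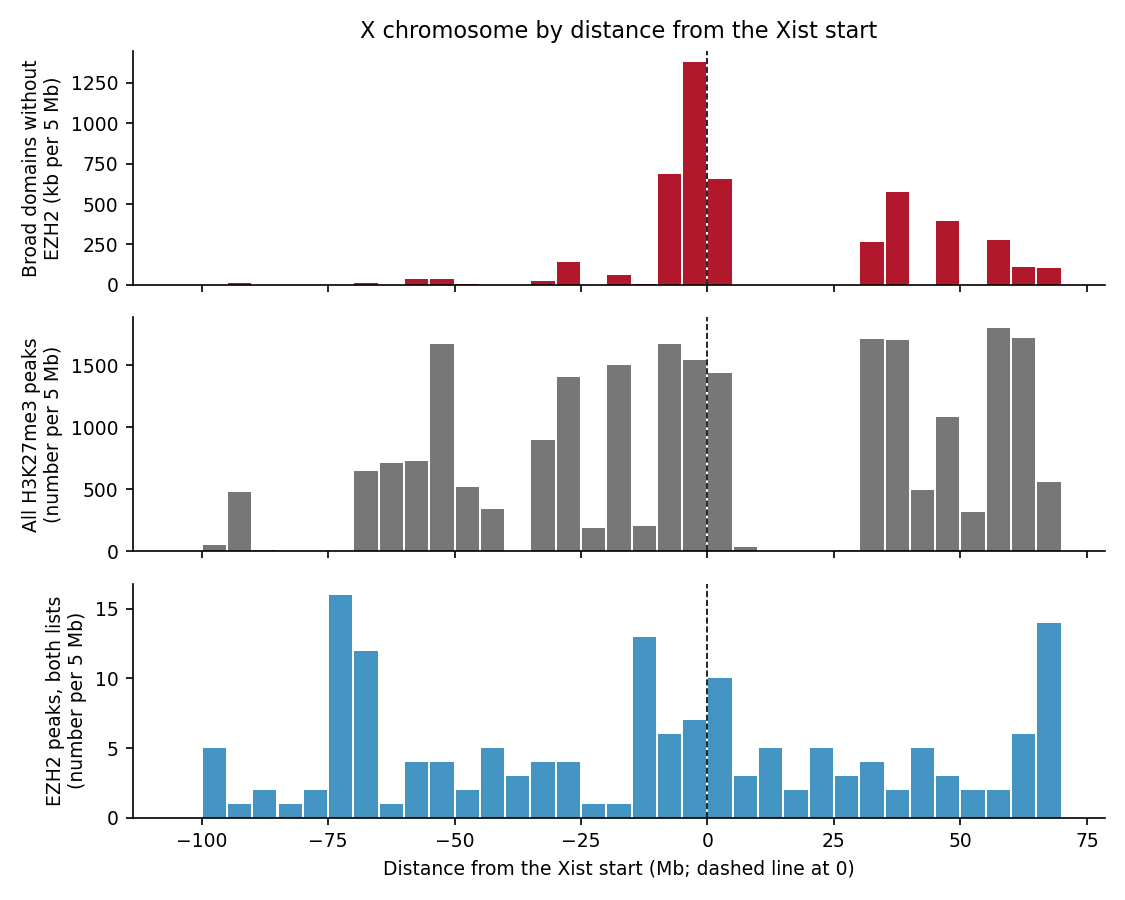
The X chromosome in windows of 5 Mb by distance from the Xist start, with the kb covered by EZH2-free domains (top), the number of all H3K27me3 peaks (middle) and the number of EZH2 peaks of both lists (bottom). The EZH2-free domains peak at 1378 kb in the window just below Xist, where there were 7 EZH2 peaks.

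Xist itself had an H3K27ac peak of 3.67-fold and no H3K27me3 peak. Tsix, the antisense gene that overlaps Xist, shared 11175 bases with 2 EZH2-free domains, whose highest fold was 7.91. The strongest H3K27me3 peak in Tsix, of 9.88-fold, was narrower than 5000 bases. A list of 8 genes known to escape X inactivation in mouse was drawn up after the X result was seen. Of these, 6 had an H3K27ac peak and 4 had an H3K27me3 peak. Mid1 alone overlapped EZH2-free domains, with 10 of them over 70270 bases. This share, 1 of 8 (12.5%), was near that over all coding genes on X, 140 of 966 (14.5%). Mid1 spans the boundary of the pseudoautosomal region in this strain. None of the Y genes examined (Ddx3y, Eif2s3y, Kdm5d and Uty) had an H3K27ac or H3K27me3 peak, and Uty had a SIRT1 peak of 2.21-fold in p53 knockout cells. The sex of the cells in each library was not given, so sex and antibody cannot be told apart in the scarcity of other peaks on X.

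The genes with the most bases in EZH2-free domains were largely on X. Col4a6, a basement membrane collagen gene, had 129025 bases in 14 domains, 41.8% of its length, with no EZH2 or H3K27ac peak in the gene. Nhsl2 had 122632 bases in 11 domains (50.5%), with 1 EZH2 peak, 1 H3K27ac peak and 1 EZH2-holding domain overlapping the gene. The deacetylase gene Hdac8 had 101792 bases in 12 domains (46.1%), like Col4a6 with no EZH2 peak. The autosomal gene with the most was Ccdc162 on chromosome 10, with 99227 bases in 7 domains of up to 11.8-fold. Otof on chromosome 5, needed for transmitter release in hair cells, had 73062 bases in 6 domains, 76.4% of its length.

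EZH2-free domains were narrower than EZH2-holding ones, with a median width of 6865 bases (quartiles 5745 and 9240.5, highest 78553) against 9161 bases (quartiles 6782 and 13593). On autosomes the EZH2-free share was lower in wider classes, being 72.7% at 5 to 6 kb, 60.9% at 6 to 8 kb, 49.2% at 8 to 12 kb, 36.7% at 12 to 20 kb and 27.4% at 20 kb or more. On X the share was 92.4% or more up to 20 kb and was 75% (9 of 12, 46.8 to 91.1) at 20 kb or more. At the threshold, the domains just inside were 5000, 5001 and 5001 bases wide with folds of 4.20, 5.44 and 7.41, and the peaks just outside were 4999, 4997 and 4997 bases wide with folds of 4.94, 4.50 and 4.45. The 88 EZH2-free peaks of 5000 to 5099 bases had a median fold of 5.50 and the 97 of 4900 to 4999 bases had 5.44.

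The fold of a peak is the authors' ratio of fragments at its summit to the local background. Its median was 6.18 in EZH2-free domains (quartiles 5.35 and 7.27, range 2.02 to 14.6) and 8.15 in EZH2-holding domains (quartiles 6.76 and 9.81), and 289 of the EZH2-free domains (12.1%) exceeded the EZH2-holding median. The summits rested on a median of 26 fragments against 37, over the same median background of 3.05. On autosomes the EZH2-free median was the lower in every width class, from 5.68 against 6.92 at 5 to 6 kb to 8.84 against 10.9 at 20 kb or more. EZH2-free domains on X were weaker than those on autosomes, with medians of 5.68 and 6.42.

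**Figure D3:**
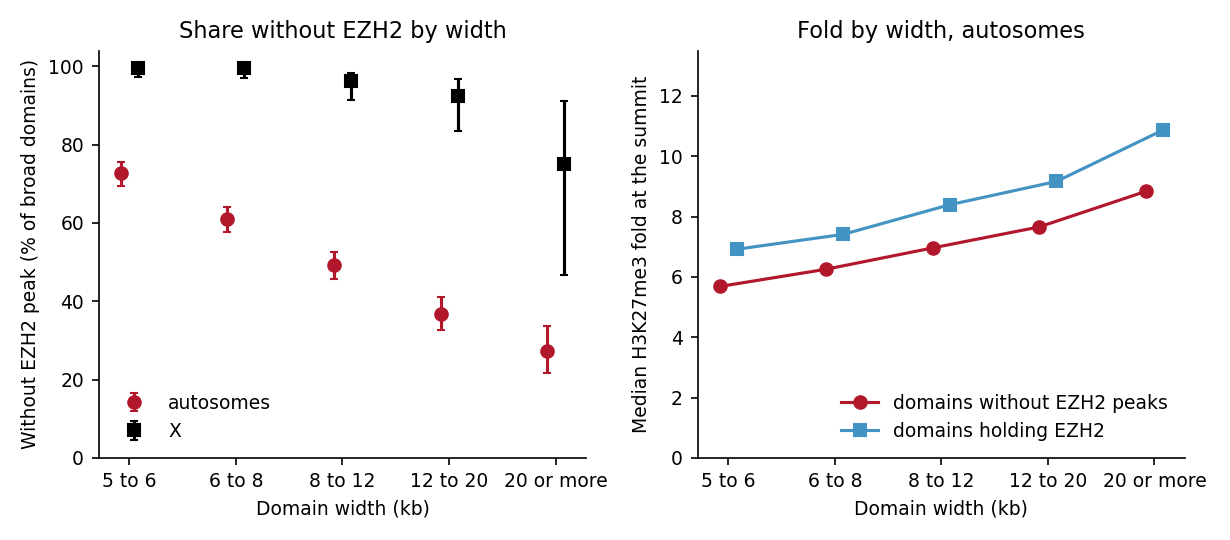
Left, the percentage of broad domains that are EZH2-free by domain width in kb, on autosomes (red circles) and X (black squares), with Wilson 95% intervals. Right, the median H3K27me3 fold on autosomes by width in EZH2-free (red) and EZH2-holding domains (blue). The share falls from 72.7% to 27.4% across the widths on autosomes, and the EZH2-free median fold is the lower in all 5 classes.

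Most EZH2-free domains had another H3K27me3 peak close by, as EZH2-holding domains did. The nearest other H3K27me3 peak was a median of 404 bases away, and 93.3% of the domains (2234) had one within 1000 bases, against 90.7% of EZH2-holding domains. An EZH2-holding domain lay within 10000 bases of 17.5% of the EZH2-free domains (419, 16.0 to 19.1), and of 22.5% of those on autosomes. The nearest EZH2 peak, which by the choice of domains could not overlap, was a median of 31790.5 bases away on autosomes, where 80.2% of the EZH2-free domains had one within 100000 bases, and 302528 bases away on X (18.8%), with 2.80% of all EZH2-free domains within 1000 bases of one and 9.94% within 5000. When EZH2-free domains up to 50 kb apart with no EZH2-holding domain between them were joined, they formed 1187 runs, of which 745 were single domains and 91 held at least 5 domains each. Those 91 runs held 774 domains (32.3%). The autosomal run with the most covered bases (chr9:61001180-61563795) included Tle3, a Groucho-family corepressor gene, and had 33 domains over 434760 bases with 1 EZH2 peak and 11 H3K27ac peaks in its span. On X the run over Hdac8 and Cdx4 (chrX:102256498-103332366) had 51 domains over 424458 bases with 1 EZH2 peak and 0 H3K27ac peaks. A run on chromosome 11 (chr11:54113139-54290856, 13 domains) had no EZH2 and no H3K27ac peak. It covered the whole of Csf2, which encodes the cytokine GM-CSF and was picked out after its value was seen, in a domain of 9.44-fold.

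The domain with the highest fold was one of 19799 bases (chr17:45942906-45962704, 14.6-fold, 58 fragments) that overlapped no protein-coding gene. It lay 54288 bases from Vegfa, the gene of a vascular growth factor. Its neighbour of 51071 bases at 12.1-fold ended 2885 bases from Vegfa. Next came a domain of 14.5-fold 10568 bases from the MHC class I gene H2-Q1, in a family of near-identical copies where read placement is uncertain. Epha2, an ephrin receptor gene, had a domain of 13.4-fold 6366 bases away and another of 12.5-fold over 9057 bases of the gene. Egflam, which encodes a retinal matrix protein, held a domain of 29545 bases within its bounds (12.8-fold), and a domain of the same fold lay 38766 bases from the sulfotransferase gene Chst15. Of the 10 highest-fold domains, 4 were on chromosome 17, 0 overlapped H3K27ac or p53, and 6 overlapped no protein-coding gene. Several of the 10 lay beside an EZH2-holding domain. Those near H2-Q1 and Chst15, both at Epha2, and those at Egflam and another MHC class I gene, H2-Q7, were 313 to 489 bases from one. The others were 31524 to 502063 bases from one. The widest domain, 78553 bases (chr15:6938268-7016820, 7.47-fold), lay 63299 bases from Osmr, the oncostatin M receptor gene, and 420 bases from an EZH2-holding domain. Among the widest 10, 3 domains of 35693 to 51435 bases overlapped no protein-coding gene and lay 56679 to 172712 bases from Tle3. On X the highest folds were 9.88, at Iqsec2, beside the tetraspanin gene Tspan6 and near Dmrtc1c2.

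EZH2-free domains held gene starts and ends at a lower share than EZH2-holding domains did. Of the EZH2-free domains, 57.3% (1373, 55.3 to 59.3) overlapped a protein-coding gene, against 84.4% of EZH2-holding domains (1254, 82.5 to 86.2). A gene start or end lay in 22.0% (527, 20.4 to 23.7) of EZH2-free and in 69.6% (1033, 67.2 to 71.9) of EZH2-holding domains. Among autosomal domains of 5 to 6 kb the shares were 23.4% and 65.6%. EZH2-free domains inside a gene with no end of it made up 35.3% (846) against 14.9% (221), and on X they made up 42.8%. The 1022 EZH2-free domains that overlapped no coding gene were a median of 20385 bases from the nearest. The gene bounds used carry no exons, so exonic and intronic overlap were not separated.

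Counted by genes, 949 of 21631 protein-coding genes (4.39%) overlapped an EZH2-free domain, against 1367 (6.32%) for EZH2-holding domains. On X it was 140 of 966 genes (14.5%) against 15 (1.55%), and on autosomes 809 of 20665 (3.91%) against 1352 (6.54%). An EZH2-free domain held an end of 566 genes (2.62%), and an EZH2-holding domain of 1191 (5.51%). For gene ends the shares were 8.8% against 1.35% on X and 2.33% against 5.7% on autosomes. With genes of any biotype, 1496 of 49554 (3.02%) overlapped an EZH2-free domain. Of the 949 genes, 82 were covered along their whole length and 231 had several EZH2-free domains. An EZH2-holding domain also overlapped 221 of them (23.3%), beside 6.32% of all coding genes. An EZH2 peak lay elsewhere in 305 (32.1%) and an H3K27ac peak in 196 (20.7%). These last 2 counts have no share over all coding genes beside them, so whether they are high or low for these genes cannot be told.

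Regulators of embryonic patterning were mostly in EZH2-holding domains. Of 43 developmental transcription factor genes, 5 overlapped an EZH2-free domain and 37 an EZH2-holding one, and the Hox genes had 3 and 35 of 39, beside a share over all coding genes of 4.39% and 6.32%. Of those 5 factors, 4 overlapped domains of both kinds, such as Gata4, with 28.0% of its length in EZH2-free domains of up to 8.89-fold and an EZH2-holding domain of 16.6-fold. Isl1, a homeobox gene of motor neurons and heart, overlapped an EZH2-free domain only (41.9% of its length, 5.08-fold) and had no EZH2 peak. Hoxa2 was wholly within an EZH2-free domain of 8.91-fold, while its neighbour Hoxa3 overlapped both kinds. Signalling genes of the Wnt, FGF, BMP and Hedgehog families followed, with 3 of 45 in EZH2-free domains (Wnt3, Wnt3a and Wnt9a, all of which overlapped EZH2-holding domains too) and 22 in EZH2-holding ones. Forkhead genes had 1 and 20 of 44, Sox genes 0 and 10 of 19, and protocadherin genes 3 and 24 of 69.

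Genes of other blood and tissue lineages were found in both kinds of domain, beside the same shares over all coding genes of 4.39% and 6.32%. Lymphoid genes counted 4 of 30 in EZH2-free (13.3%) and 5 in EZH2-holding domains (16.7%). Cd3e, a chain of the T cell receptor complex, was covered along its whole length at 5.97-fold with no EZH2 peak, and Tbx21, the T helper factor T-bet, had 22.1% in an EZH2-free domain of 10.4-fold but also overlapped an EZH2-holding one. Among granulocyte and erythroid genes 1 of 25 was in an EZH2-free domain, Slc4a1, the red cell anion exchanger (whole length, 7.91-fold, no EZH2 peak), and 4 were in EZH2-holding domains. Stromal, endothelial and epithelial genes counted 2 of 28 against 7, with Col1a1 at 70.1% of its length (6.42-fold) and no EZH2 peak. Imprinted genes counted 5 of 29 (17.2%) against 3 (10.3%). Ascl2, a placental factor gene, was wholly in an EZH2-free domain of 8.02-fold, and Igf2, a fetal growth factor gene, had 46.6% in EZH2-free domains and overlapped an EZH2-holding domain of 11.9-fold. Collagen genes counted 7 of 44 (15.9%) against 11 (25%), synaptic and axon guidance genes 4 of 44 against 5, and Polycomb complex genes 1 of 30 (Cbx7, 6.67-fold) against 2.

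Some families had higher counts in EZH2-free than in EZH2-holding domains. Keratin genes, keratin-associated ones included, had 9 of 109 against 4, with Krtap5-4 and Krtap5-1 covered whole. Genes named Zfp had 8 of 367 against 3, and olfactory receptor genes 5 of 1106 against 1. The last 2 shares in EZH2-free domains, 2.18% and 0.452%, were below the 4.39% of all coding genes, and both families include similar copies in clusters, where read placement is uncertain. Solute carrier genes had 23 of 389 against 33. Macrophage identity genes and cytosolic ribosomal protein genes had 0 of 30 in either kind, while 27 and 24 of them had H3K27ac. Of 30 inflammasome and cytokine genes, 2 overlapped an EZH2-free domain: Il1r1, the interleukin 1 receptor (6382 bases, 5.36-fold), and the DNA sensor gene Aim2 (9773 bases, 6.18-fold), each with an H3K27ac peak within the gene's bounds. Aim2 also had an EZH2 peak and an EZH2-holding domain of 8.65-fold.

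Promoters in EZH2-free domains held fewer CG dinucleotides than those in EZH2-holding ones. The median over 386 protein-coding promoter entries was 11 (10 to 13) in EZH2-free domains, against 20 (19 to 21) over 896 entries in EZH2-holding domains and 13 over all 21045 entries. At least 20 CG were found in 29.8% (25.4 to 34.5) of promoters in EZH2-free domains, in 50.2% (47.0 to 53.5) of those in EZH2-holding domains and in 36.3% of all. Entries with no CG were 1.81%, 0.112% and 4.46% of the same 3 groups. Within EZH2-free domains the median was 11 on the autosomes and also 11 on X, where all coding promoters had a median of 8. The Mucl3, Gimap1 and Cdx4 sequences printed above lie below the median of their group and Hmcn2 and Iqsec2 above it. Bcar1 lies above the median of the EZH2-holding group.

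**Figure D4:**
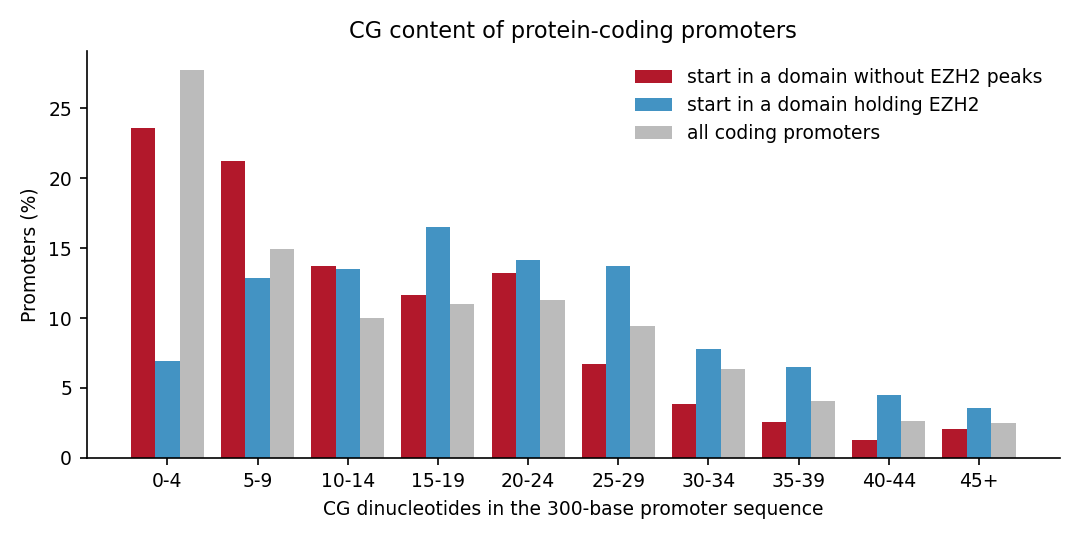
Percentage of protein-coding promoter entries by the number of CG dinucleotides in their 300 bases, for starts in EZH2-free domains (red, 386), starts in EZH2-holding domains (blue, 896) and all entries (grey, 21045). Fewer than 5 CG were found in 23.6% of promoters in EZH2-free domains and in 6.92% of those in EZH2-holding domains, and in 27.7% of all.

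Few broad domains of either kind overlapped an H3K27ac peak, while the density of such peaks differed between the kinds. On autosomes, 91 EZH2-free domains (5.07%, 4.15 to 6.19) overlapped an H3K27ac peak, against 23 EZH2-holding domains (1.56%, 1.05 to 2.34). In peaks per Mb this was 11.6 against 2.24, with 20.7 over all autosomes. The EZH2-free share was the higher in every width class under 20 kb (5.67% against 1.89% at 5 to 6 kb), and at 20 kb or more it was 1.72% against 2.60%. On X, 1 EZH2-free domain had such a peak. In all, there were 179 overlaps of an H3K27ac peak with an EZH2-free domain, in 92 domains, with a peak counted once for each domain it met. They shared a median of 569 bases, and in 37 of them (20.7%) the peak crossed a domain edge.

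At and beside Chchd6, a mitochondrial gene on chromosome 6, an H3K27ac peak of 34628 bases and 7.45-fold took in the whole of 2 EZH2-free domains (7.41-fold and 6.16-fold), and another of 14688 bases covered most of another (6.16-fold). Overlap of both marks in the same cells, on different alleles or in different cells cannot be told apart in bulk chromatin. Dcstamp, which acts in the fusion of osteoclasts and giant cells, had an H3K27ac peak of 6.79-fold and 877 bases inside a domain of 5.93-fold. The zinc finger gene Zfp469 had peaks of 5.49-fold and 5.44-fold in domains of 6.92-fold and 9.39-fold. Other strong ones lay in domains that overlapped no protein-coding gene, 98263 bases from the transcription factor gene Ets2 (5.88-fold) and 34070 bases from the GTPase gene Rhou (5.71-fold).

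**Figure D5:**
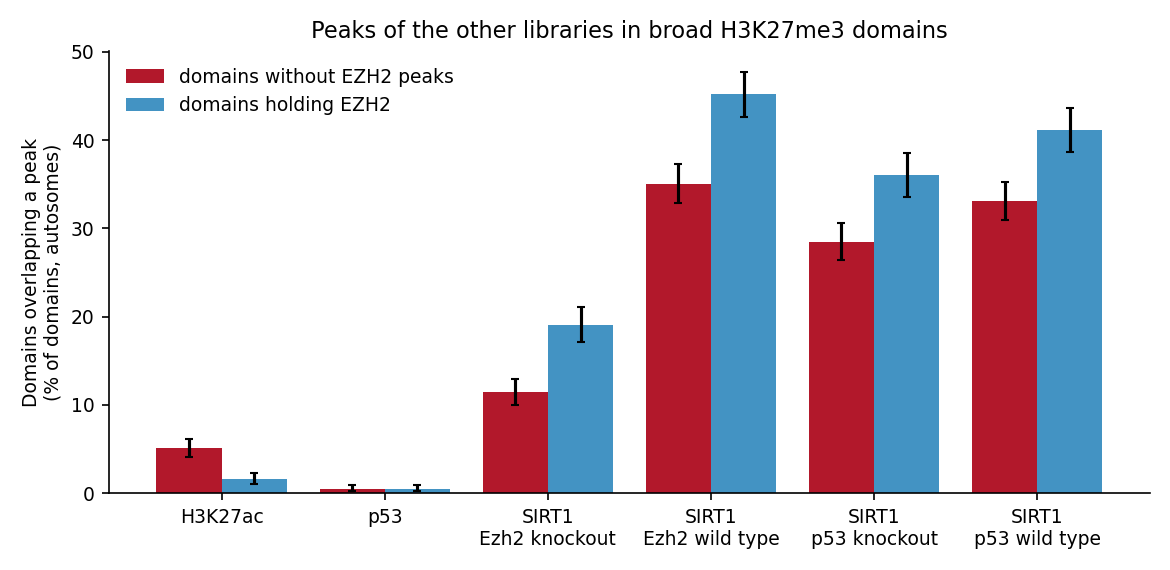
Percentage of autosomal broad domains that overlap a peak of each other library, EZH2-free (red, 1794) and EZH2-holding (blue, 1470), with Wilson 95% intervals. H3K27ac has the higher share in EZH2-free domains (5.07% against 1.56%), and p53 is near 0 in both. Over all widths together, each SIRT1 list has the lower share in EZH2-free domains.

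SIRT1 peaks lay in many autosomal EZH2-free domains, at lower shares than in EZH2-holding ones but at a higher density than over the autosomes as a whole. Per Mb of EZH2-free domain there were 15.3 peaks in Ezh2 knockout and 54.3 in Ezh2 wild-type cells, and 41.9 in p53 knockout and 49.5 in p53 wild-type cells, against 7.30, 30.0, 24.1 and 22.7 per Mb of all autosomes. Per Mb of EZH2-holding domain there were 20.2, 59.7, 43.2 and 50.9 in the same order. The shares of domains were 11.4% in Ezh2 knockout cells and 35.1% in Ezh2 wild-type cells, and 28.5% in p53 knockout and 33.1% in p53 wild-type cells. In EZH2-holding domains they were 19.05% and 45.2%, and 36.0% and 41.1%. The gap differed between width classes and was reversed in some. At 6 to 8 kb the EZH2-free and EZH2-holding shares were 9.18% and 14.9% in Ezh2 knockout, 30.8% and 31.0% in Ezh2 wild-type, 25% and 26.3% in p53 knockout and 34.2% and 30.0% in p53 wild-type cells. At 20 kb or more, with 58 EZH2-free and 154 EZH2-holding domains, they were 32.8% and 38.3%, 68.97% and 80.5%, 56.9% and 67.5%, and 68.97% and 74.7% in the same order. The lists differ in length, with 18087 peaks in Ezh2 knockout and 74346 in Ezh2 wild-type cells. With all 4 lists cut to equal length by p-value, the shares over all EZH2-free domains were 8.56% in Ezh2 knockout and 8.31% in Ezh2 wild-type cells, and 7.64% in p53 knockout and 9.48% in p53 wild-type cells. The SIRT1 lists hold few strong peaks anywhere: a q-value of at most 0.05 was reached by 507 of 18087 peaks in Ezh2 knockout and 247 of 74346 in Ezh2 wild-type cells, and by 321 of 59703 in p53 knockout and 180 of 56129 in p53 wild-type cells. Such peaks lay in 6 autosomal EZH2-free domains in Ezh2 knockout and 2 in Ezh2 wild-type cells, and in 1 in p53 knockout and 3 in p53 wild-type cells. On X, SIRT1 peaks lay in 0 of 601 EZH2-free domains in Ezh2 knockout cells (Wilson upper bound 0.635%) and 23 in Ezh2 wild-type cells, and in 10 in p53 knockout and 13 in p53 wild-type cells.

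p53 peaks lay in 10 EZH2-free domains (0.418%, 0.227 to 0.767) and in 7 EZH2-holding domains (0.471%, 0.229 to 0.970), a difference within counting error. On autosomes this was 0.522 and 0.401 peaks per Mb, against 1.94 per Mb of all autosomes. The strongest were at the chaperone gene Clgn (3.40-fold), 47002 bases from the hindlimb homeobox gene Pitx1 (3.06-fold) and in Mid1 (2.72-fold). None passed a q-value of 0.05.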

How the data were processed

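Chromatin immunoprecipitation libraries of primary macrophages were deposited as 9 peak lists of 10 columns, 1 per library and none pooled. MACS2 and deepTools on GRCm38/mm10 are named in the submitters' processing notes, while aligner, read filters and versions were not given in the sources used here. In the lists deposited by the authors, the fold column is a ratio of fragments at the summit to local background with a pseudocount of 1 on each, 2 columns give the −log10 of each peak's p-value and q-value, the score column was not used, and the last column is the summit's offset.

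From these, overlaps of at least 1 base, widths, gaps and shares were computed with Python 3.11.15, pandas 2.3.3, numpy 2.4.6 and scipy 1.17.1 on chromosomes 1 to 19 and X. Coordinates are 1-based. Shares carry Wilson 95% intervals and medians order-statistic 95% intervals. Read totals are not given, so depth is shown by the fragments at each summit, solved from fold and p-value to within 0.001 of the −log10 p for all 3880 broad domains. The calculations were tested on simulated data. Gene bounds (without strand or exons) and promoters came from RefSeq tables of GRCm38; promoters of chromosome 18 were not used here.

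The domains and gene lists were chosen with earlier results of these data known. Genes named are those sharing most bases with, or nearest to, the 10 highest-fold and 10 widest domains, the 5 coding genes with most bases in EZH2-free domains, and up to 4 per list by domain fold. The highest-fold domains on X, the promoters printed, the genes at H3K27ac and p53 peaks and in runs, Otof, and the X and Y genes were chosen after their values were seen. A gene that the rule selects is not reported here.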

Additional observations from a re-analysis of the deposited data

How the results depend on the processing

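Over 15 alternatives, 133 values of 13 results were recomputed: 66 stayed within the interval or within 1.5 times of the value reported and 67 moved. Against EZH2-holding domains, 109 of 113 comparable values kept their direction. The 4 exceptions were p53 at a minimum width of 4000 bases (0.480% EZH2-free, 0.406% EZH2-holding) and of 10000 bases (0.413% and 0.310%), and, on X alone, p53 (0.333% and 0%) and SIRT1 in p53 wild-type cells (2.16% and 0%). The cause of the changes below was not tested. With a minimum width of 4000 bases there were 3753 EZH2-free domains, 68.5% of broad ones, with a median fold of 5.93, SIRT1 shares of 7.27% (Ezh2 knockout), 24.4% (Ezh2 wild type), 18.6% (p53 knockout) and 20.8% (p53 wild type), and a gene start or end in 19.5%. With 10000 bases there were 484 (42.9%), 21.1% of them on X, with a median fold of 7.41, a promoter CG median of 8.5, SIRT1 shares in the same order of 16.3%, 43.8%, 38.8% and 37.6%, and a gene start or end in 28.1%. Where only EZH2 peaks with a q-value of at most 0.05 counted, 78.0% were EZH2-free, 20.2% of them on X, with a median fold of 6.42, a CG median of 15, SIRT1 shares of 9.92% (Ezh2 knockout), 30.0% (Ezh2 wild type) and 23.8% (p53 knockout), a coding gene in 61.8% and a gene start or end in 30.0%. With only the untreated EZH2 list these were 66.1% EZH2-free, a fold of 6.19 and a gene start or end in 23.8%. With no EZH2 peak within 5000 bases, 55.6% were EZH2-free and 27.4% of those were on X. On autosomes alone, 55.0% were EZH2-free, with a fold of 6.42, H3K27ac in 5.07%, SIRT1 in 11.4%, 35.1%, 28.5% and 33.1%, and a gene start or end in 24.4%.

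Alternatives added after seeing the data were H3K27me3 peaks joined over gaps of up to 1000 bases, X alone, and the share on X under the other settings. Joined peaks gave 5180 EZH2-free domains (73.1%), 32.3% of them on X, with a fold of 5.19, a CG median of 9, H3K27ac in 4.71% and a gene start or end in 24.2%. X alone gave 601 (97.6%), a fold of 5.68, H3K27ac in 0.166%, SIRT1 in 0%, 3.83%, 1.66% and 2.16%, and a gene start or end in 15.0%. Peaks with a q-value of at most 0.05 lay in 0% for p53 and for SIRT1 in 0.251% (Ezh2 knockout), 0.125% (Ezh2 wild type), 0.0418% (p53 knockout) and 0.125% (p53 wild type). SIRT1 lists of equal length gave 8.31% in Ezh2 wild-type, 7.64% in p53 knockout and 9.48% in p53 wild-type cells. With all RefSeq genes, a gene lay in 71.9% and a gene start or end in 35.8%, and with ends within 5000 bases in 38.2%. No paired analysis was possible because each group held 1 library and no result came from a test.

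The EZH2 lists hold 5054 peaks after nigericin and 9581 in untreated cells on these chromosomes, so a domain without a listed peak may still carry EZH2 below what this depth can show. Of EZH2-holding domains, 57.6% held an EZH2 peak with a q-value of at most 0.05.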
